A study of Caenorhabditis elegans with 20 samples.

Results

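Fatty acid synthesis in C. elegans was followed through 8 genes, which were found by their symbols among the 39341 genes of the tables: the regulators sbp-1 and mdt-15, the de novo synthesis enzymes pod-2 and fasn-1, and the elongases elo-1, elo-2, elo-5 and elo-6. All 8 were measured in each of the 20 libraries, and all 8 passed the filter on low values in both experiments (at least 5 CPM in at least 2 libraries). CPM scales each library to 1000000 counts in all. The libraries hold 3′ ends of transcripts, so a value does not depend on transcript length, but it is compared here only between libraries for the same gene and never between genes.

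POD-2, an acetyl-CoA carboxylase, makes malonyl-CoA, and FASN-1, the fatty acid synthase, uses it to build saturated fatty acids. The products are lengthened in a cycle whose first step is run by ELO elongases: ELO-2 lengthens palmitate, ELO-1 acts in the synthesis of polyunsaturated fatty acids together with ELO-2, and ELO-5 and ELO-6 make the monomethyl branched-chain fatty acids. SBP-1 is the worm homologue of the sterol regulatory element binding protein, which drives lipid synthesis genes and is known to be activated when phosphatidylcholine is low. MDT-15 is a Mediator subunit that works as a coactivator of SBP-1 and of the nuclear hormone receptor NHR-49. Phosphatidylcholine synthesis in the worm consumes S-adenosylmethionine, which is made from methionine in the methionine and S-adenosylmethionine (Met/SAM) cycle, and much fatty acid synthesis takes place in the intestine.

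The study perturbed the Met/SAM cycle and the nuclear hormone receptor gene nhr-114 in a pair of experiments, and messenger RNA was profiled in whole animals labelled L4, pooled from many staged animals, with 2 biological replicates for each of 10 groups. The first experiment had 8 libraries in 4 groups. There, Δnhr-114 animals, nhr-114(gk849), and wild type animals were grown for 48 hours on soy peptone plates with E. coli OP50 and either 25 mM methionine or none added. In the second (12 libraries, 6 groups), metr-1(ww52);Δnhr-10 animals, called the double mutant below and carrying nhr-10(tm4695), Δmetr-1 animals, metr-1(ok521), and wild type animals were grown for 48 hours with 20 nM added vitamin B12 on E. coli HT115 that expressed nhr-114 RNAi or carried the vector. METR-1, the methionine synthase of the cycle, needs vitamin B12 to work. Every strain, wild type included, carried the reporter wwIs24[Pacdh-1::GFP;unc-119(+)]. The double mutant has altered metr-1 and nhr-10, and the parts of these alleles in its values cannot be told apart. The experiments used different bacteria and media and were not compared with each other.

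The first experiment held between 1389117 and 24482380 reads in a library and the second between 2542155 and 16025927, and 3 reads, the limit that a count of 0 allows, correspond to 0.123 to 2.16 CPM. That limit covers counting error only. The level of the gene targeted by RNAi was high in 3 libraries labelled RNAi. In the replicate 1 libraries labelled nhr-114 RNAi, nhr-114 was at 391 CPM in the double mutant, 193 CPM in Δmetr-1 and 340 CPM in wild type, whereas the replicate 2 libraries had 2.30 to 7.94 CPM. The vector libraries had 29.4 to 46.3 CPM in the mutants, and 8.98 and 3.16 CPM in wild type. The RNAi calls among the 8 genes are therefore also given without these 3 libraries. In both mutants, metr-1 in these libraries was near its level in replicate 2 and below vector, as given below. Why nhr-114 was high in them was not tested. In Δnhr-114 animals nhr-114 was at 0.409 to 0.703 CPM, against 5.41 to 36.6 CPM in wild type of the same experiment. The mutated metr-1 was at 130.0 and 116 CPM in the double mutant and 30.3 and 45.7 CPM in Δmetr-1, against 94.5 and 73.7 CPM in wild type on RNAi. With vector it had 555 and 462 CPM in the double mutant and 372 and 468 CPM in Δmetr-1, against 59.8 and 69.4 CPM in wild type. The double mutant was above wild type on both bacteria, and Δmetr-1 was above it on vector and below it on RNAi. The nhr-10 level was 16.1 to 25.9 CPM in the double mutant, against 22.8 to 79.6 CPM in the other groups of that experiment. Whether the counted 3′ ends lie outside these alleles is not known here, so metr-1 and nhr-10 do not check the strain labels.

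Animals of some groups also differed in markers of stage and germline. The summed level of 6 sperm markers was 17.1 to 27.6 CPM in the double mutant and 17.6 to 22.8 CPM in Δmetr-1 on nhr-114 RNAi, against 101 to 199 CPM in the other groups of that experiment, and the sum of 6 germline markers was 175 to 238 CPM in these mutants on RNAi, against 518 to 1011 CPM in the other groups. The sum of 6 yolk protein genes, which are made in the adult intestine, was 345 and 3423 CPM in the double mutant libraries and 3245 and 5518 CPM in the Δmetr-1 libraries on RNAi, against 64.0 to 3264 CPM in the mutants on vector and 125 to 520 CPM in wild type. The sum of 5 body wall muscle genes was 1336 to 3510 CPM in the mutants on RNAi, against 4416 to 12314 CPM in the mutants on vector and 1669 to 2861 CPM in wild type. The intestinal marker sum ranged less, from 4650 to 7348 CPM over all 12 libraries, with none of its 7 genes at 0. In whole animals, fewer cells of a type and less RNA per cell cannot be told apart, and of these differences only those in stage were examined, by a fit with oocyte and cuticle markers as covariates. The part of the muscle and sperm markers was not tested.

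**Figure D1:**
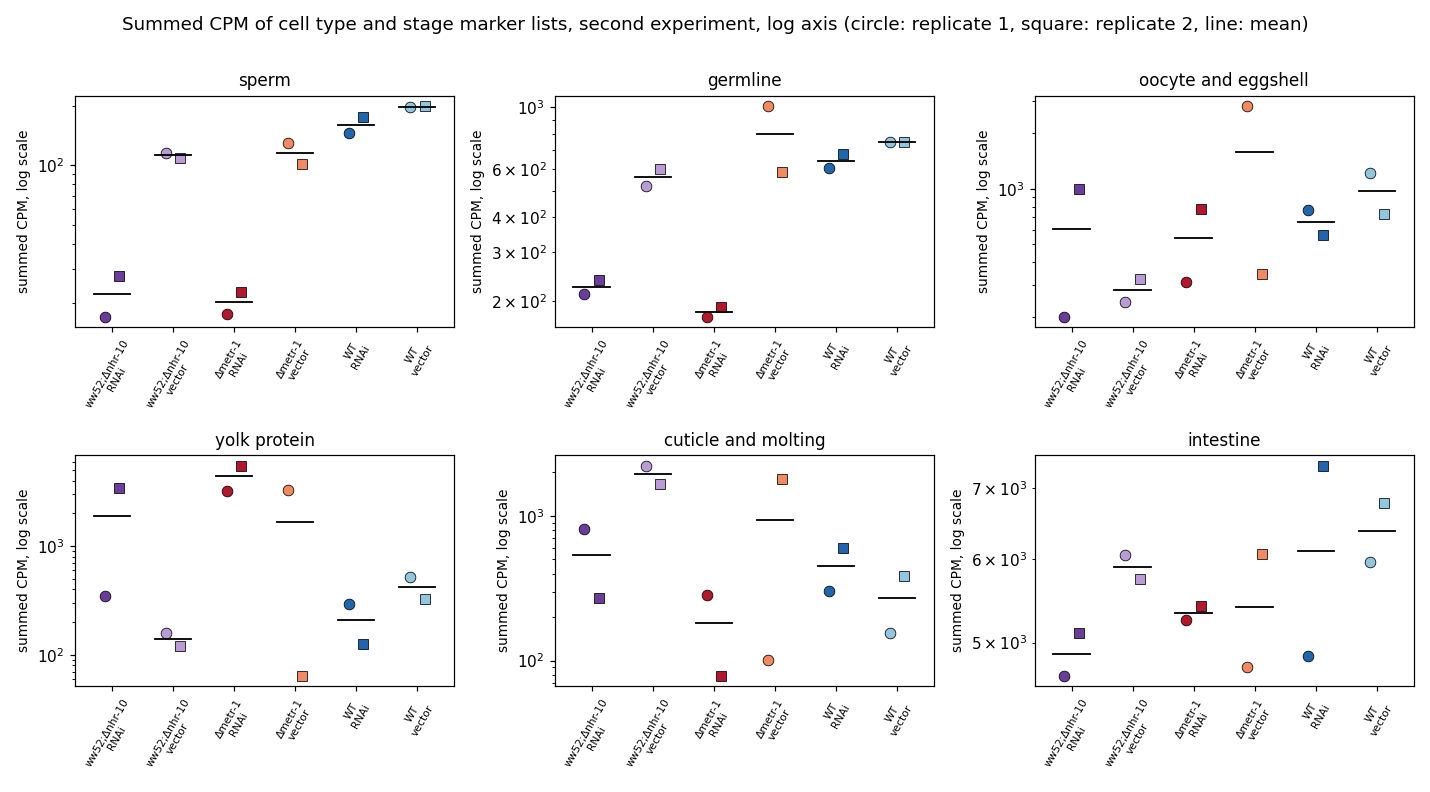
Summed CPM (log axis) of 6 marker lists in the second experiment, by group on the horizontal axis, with a circle for replicate 1, a square for replicate 2 and a line for the mean of both. The sperm and germline sums of both metr-1 mutants on nhr-114 RNAi lie below those of all other groups, and the yolk protein sums of the Δmetr-1 vector libraries are 3264 and 64.0 CPM.

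The clearest result concerned the elongases elo-2 and elo-1 in metr-1 mutants on nhr-114 RNAi. Elo-2 rose 4.61-fold in Δmetr-1 and 3.64-fold in the double mutant relative to wild type on the same RNAi, and elo-1 rose 2.32-fold and 2.35-fold in these comparisons. Elo-2 was also called between nhr-114 RNAi and vector in Δmetr-1 (2.82-fold higher). These were the 5 calls among 112 tests of the 8 genes over 14 comparisons. A gene was called where limma, fitted to log2(CPM + 1) over all libraries of an experiment, gave a Benjamini-Hochberg adjusted p under 0.01 over all genes tested and a fold change over 1.5, the threshold of the study. Relative to wild type on RNAi, limma called 15.9% of all genes in Δmetr-1 and 12.3% in the double mutant. Between RNAi and vector in Δmetr-1 it called 12.5% of all genes, and 1 of the 8. All folds and log2 changes are on the log2(CPM + 1) scale, which understates the change of low genes, and ranges after a log2 change are 95% intervals. EdgeR and DESeq2, run on the reads recovered from the CPM values, also made each of these 5 calls.

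**Figure D2:**
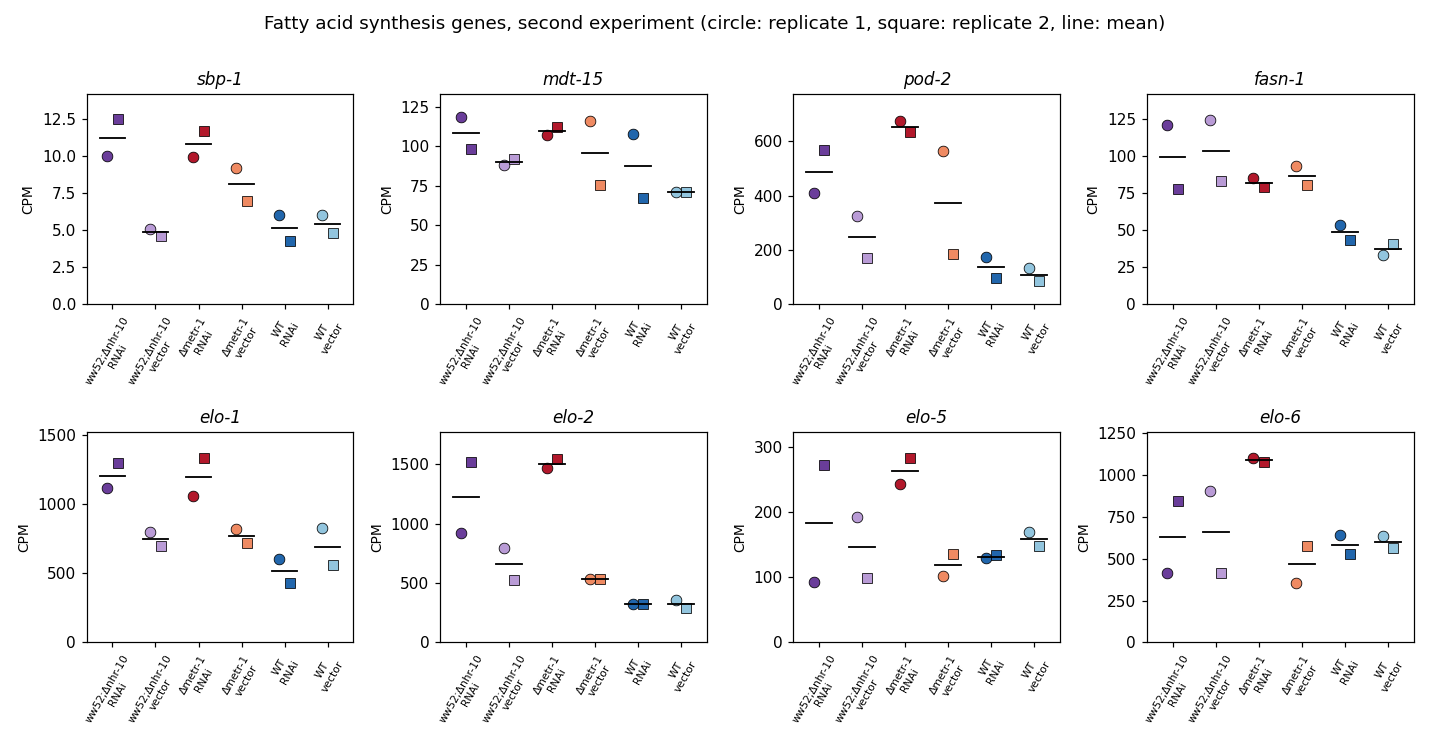
CPM of each of the 8 genes in the second experiment, by group on the horizontal axis, with a circle for replicate 1, a square for replicate 2 and a line for the mean of both. Elo-2 is between 926 and 1546 CPM in both metr-1 mutants on nhr-114 RNAi and between 290.1 and 355 CPM in all 4 wild type libraries, while the replicates of elo-5 and elo-6 lie far apart in metr-1(ww52);Δnhr-10.

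Among the regulators, sbp-1 (WBGene00004735, chromosome III, 11428367 to 11442566, reverse strand) had the lowest counts of the 8 genes. With nhr-114 RNAi its level was 10.04 and 12.5 CPM (48 and 194 reads) in the double mutant and 9.93 and 11.7 CPM (110 and 162 reads) in Δmetr-1, against 6.07 and 4.30 CPM (39 and 58 reads) in wild type. Vector libraries had 5.11 and 4.62 CPM in the double mutant, 9.25 and 6.99 CPM in Δmetr-1, against 6.02 and 4.81 CPM in wild type. All 4 libraries of the mutants on RNAi were above all wild type libraries. None of these differences was called: the adjusted p from limma was 0.0344 for the double mutant against wild type on RNAi (log2 change 1.00, 0.33 to 1.66), 0.0358 for Δmetr-1 against wild type on RNAi (0.94, 0.28 to 1.61) and 0.0414 for RNAi against vector in the double mutant (1.06, 0.40 to 1.72). The gene idpc-1 lies on the other strand within the span of sbp-1, and its own values ranged from 16.9 to 373 CPM over these libraries. Whether the authors' counting used strand is not stated, so reads of this pair may not be told apart and sbp-1 is uncertain.

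The coactivator gene mdt-15 (WBGene00007016, chromosome III, 5828557 to 5833751, reverse strand) had the narrowest range of the 8 genes in the second experiment. Its level was 118 and 98.3 CPM in the double mutant and 107 and 112 CPM in Δmetr-1, against 108 and 67.2 CPM in wild type on nhr-114 RNAi. Vector libraries had 88.1 and 92.1 CPM in the double mutant and 116 and 75.6 CPM in Δmetr-1, against 71.3 and 70.9 CPM in wild type. The groups on RNAi overlapped, and the log2 changes of the 7 comparisons between groups of that experiment lay between 0.22 and 0.39 with adjusted p of 0.362 or more from limma. Overlapping genes on either strand, R12B2.8 and R12B2.13, make small changes in mdt-15 uncertain.

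Of the synthesis enzymes, pod-2 (WBGene00004076, chromosome II, 1136785 to 1152705, forward strand) had the largest log2 change of the 8 genes between Δmetr-1 and wild type on RNAi, and the widest error in that experiment (SE 0.53). Fed nhr-114 RNAi, animals had 411 and 568 CPM in the double mutant and 674 and 636 CPM in Δmetr-1, against 176 and 97.3 CPM in wild type. Fed vector bacteria, they had 325 and 173 CPM in the double mutant and 564 and 185 CPM in Δmetr-1, against 133 and 86.5 CPM in wild type. The mutant libraries were above those of wild type on each bacterium, and the Δmetr-1 vector replicates differed from each other about as much as the groups did. On RNAi the log2 change was 2.31 (1.11 to 3.51) in Δmetr-1 against wild type, which missed the threshold in limma (adjusted p 0.0109) and passed it in edgeR (0.00473) and DESeq2 (3.43e-05). In limma pod-2 was called there with any expressed gene kept in the test (adjusted p 0.00884), with median-of-ratios scaling (0.00489), with the compared libraries only (0.0041), and without replicate 1 (0.00156) or replicate 2 (0.00155) of Δmetr-1 on vector. For the double mutant against wild type on RNAi the log2 change was 1.87 (0.68 to 3.07), with adjusted p 0.031 in limma, 0.0172 in edgeR and 0.00205 in DESeq2. Limma called it only without replicate 1 or replicate 2 of Δmetr-1 on vector. Those vector libraries are in neither comparison on RNAi. Leaving out 1 of that pair, at 564 and 185 CPM, lowered the shared spread and left the log2 change as it was, so it adds no support. W09B6.4 overlaps pod-2 on the other strand, with its highest value below the lowest of pod-2.

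The fatty acid synthase gene fasn-1 (WBGene00009342, chromosome I, 8975366 to 8986540, reverse strand) was higher in the mutants than in wild type on either bacterium, and these differences mostly missed the threshold. It was at 120.4 and 77.7 CPM on RNAi and 124 and 82.9 CPM on vector in the double mutant, and at 84.8 and 79.1 CPM on RNAi and 93.2 and 80.1 CPM on vector in Δmetr-1. In wild type it was at 53.4 and 43.4 CPM on RNAi and 33.0 and 40.9 CPM on vector. All 8 mutant libraries were above all 4 wild type libraries. On vector the log2 change was 1.44 (0.78 to 2.09) in the double mutant against wild type, called by DESeq2 (adjusted p 0.00932) and by neither limma (0.0711) nor edgeR (0.0963), and 1.21 (0.56 to 1.87) in Δmetr-1 against wild type, called by none of the 3 (limma adjusted p 0.207). On RNAi it was 0.99 (adjusted p 0.0337) and 0.75 (adjusted p 0.0769) in these strains. Between RNAi and vector the mutants differed little, by -0.066 in the double mutant and -0.076 in Δmetr-1, and these signs turn with median-of-ratios scaling.

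The elongase gene elo-2 (WBGene00001240, chromosome IV, 17466062 to 17467408, reverse strand) was highest in the metr-1 mutants on nhr-114 RNAi. The values were 926 and 1523 CPM in the double mutant and 1467 and 1546 CPM in Δmetr-1, against 325 and 327 CPM in wild type on the same RNAi. The vector libraries held elo-2 at 799 and 525 CPM in the double mutant and 532 and 536 CPM in Δmetr-1, against 355 and 290.1 CPM in wild type. The order of the group means was Δmetr-1 on RNAi, the double mutant on RNAi, the double mutant on vector, Δmetr-1 on vector, and both wild type groups, and only neighbours of the same bacterium or of wild type overlapped. On RNAi elo-2 rose by a log2 change of 2.21 (1.61 to 2.81, adjusted p 0.000372 in limma) in Δmetr-1 and of 1.86 (1.26 to 2.46, adjusted p 0.00114) in the double mutant relative to wild type. The Δmetr-1 call held without any single library. The call in the double mutant was lost without replicate 2 of wild type on RNAi (1.87, adjusted p 0.0114) or replicate 2 of the double mutant on RNAi (adjusted p 0.0118).

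Relative to vector, nhr-114 RNAi raised elo-2 in Δmetr-1 by a log2 change of 1.49 (0.89 to 2.09, adjusted p 0.00335 in limma), and in the double mutant the change was 0.87 (0.27 to 1.47, adjusted p 0.0567). In wild type it was 0.021 (-0.58 to 0.62, adjusted p 0.998). The change in Δmetr-1 exceeded that in wild type by 1.47 (0.62 to 2.32), an interaction that missed the threshold (adjusted p 0.0482), and for the double mutant the interaction was 0.85 (0.0045 to 1.70, adjusted p 0.253). The RNAi call in Δmetr-1 was lost without replicate 1 of Δmetr-1 on vector (1.49, adjusted p 0.0163), or replicate 1 (1.53, adjusted p 0.0229) or replicate 2 (1.46, adjusted p 0.0275) of Δmetr-1 on RNAi, and with the compared libraries only (adjusted p 0.0367). On vector alone, elo-2 differed from wild type by 1.01 in the double mutant (adjusted p 0.172) and 0.73 in Δmetr-1 (adjusted p 0.497), with no overlap of the libraries and no call. The Δmetr-1 vector libraries, whose yolk protein sums were 3264 and 64.0 CPM, had elo-2 at 532 and 536 CPM. For the double mutant on RNAi, replicate 1 had a yolk protein sum of 345 CPM beside 926 CPM of elo-2. Replicate 2 was higher for each, with 3423 CPM of yolk protein and 1523 CPM of elo-2. Whether elo-2 follows yolk protein levels within groups was not tested.

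Elo-1 (WBGene00001239, chromosome IV, 9526366 to 9528336, forward strand) reached 1116 and 1293 CPM in the double mutant and 1058 and 1334 CPM in Δmetr-1 on nhr-114 RNAi, against 604 and 432 CPM in wild type. With vector its level was 797 and 695 CPM in the double mutant and 821 and 719 CPM in Δmetr-1, against 824 and 556 CPM in wild type. The 3 vector groups overlapped, and only the mutants on RNAi stood above them. Elo-1 rose on RNAi relative to wild type by a log2 change of 1.23 (0.68 to 1.79, adjusted p 0.00605 in limma) in the double mutant and of 1.22 (0.66 to 1.77, adjusted p 0.00523) in Δmetr-1. RNAi against vector gave log2 changes of 0.69 (adjusted p 0.0946) in the double mutant, 0.63 (adjusted p 0.0854) in Δmetr-1 and -0.41 (adjusted p 0.998) in wild type, none of them called.

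Both elo-1 calls were close to the threshold and were lost in several fits with 1 library left out. Vector libraries are not part of these comparisons. Leaving out a vector library alters the shared spread and its precision, and not the log2 change. In limma the Δmetr-1 call was lost without replicate 2 of wild type on RNAi (0.97, adjusted p 0.0456), replicate 1 (1.38, 0.0163) or replicate 2 (1.05, 0.0503) of Δmetr-1 on RNAi, or replicate 1 (0.0104) or replicate 2 (0.0103) of the double mutant on vector. The call in the double mutant was lost without replicate 1 (1.47, 0.0118) or replicate 2 (0.99, 0.0511) of wild type on RNAi, replicate 1 (0.0118) or replicate 2 (0.0118) of its own vector libraries, or replicate 1 (1.34, 0.0233) or replicate 2 (1.13, 0.0515) of its RNAi libraries. Both were also lost with no filter on low values (0.0136 in Δmetr-1 and 0.0155 in the double mutant) and with the compared libraries only (0.0207 and 0.0236). The gene elo-7, another elongase, lies 1610 bases beyond the end of elo-1, and it moved the other way, as given below.

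Elo-5 (WBGene00001243, chromosome IV, 5374616 to 5377117, reverse strand) and elo-6 (WBGene00001244, chromosome IV, 5386629 to 5388559, reverse strand) lie near each other, serve branched-chain fatty acid synthesis and varied together. In Δmetr-1 on nhr-114 RNAi elo-5 was at 243 and 284 CPM and elo-6 at 1101 and 1076 CPM, the highest group of each. On vector the same strain had elo-5 at 102 and 136 CPM and elo-6 at 357 and 575 CPM. The wild type means were in between, with elo-5 at 130.5 and 134 CPM on RNAi and 171 and 148 CPM on vector, and elo-6 at 643 and 525 CPM on RNAi and 634 and 563 CPM on vector. RNAi against vector in Δmetr-1 gave log2 changes of 1.16 (0.14 to 2.18, adjusted p 0.0845) for elo-5 and 1.26 (0.33 to 2.19, adjusted p 0.0482) for elo-6 in limma, with no overlap of the libraries and no call by limma, edgeR or DESeq2.

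In the double mutant the replicates of elo-5 and elo-6 disagreed. On RNAi elo-5 was at 93.7 and 273 CPM and elo-6 at 415 and 846 CPM, and on vector elo-5 was at 194 and 99.96 CPM and elo-6 at 905 and 413 CPM. Replicate 1 was the lower library on RNAi and the higher one on vector for both genes. The yolk protein sums of the RNAi libraries were 345 and 3423 CPM in the same order, and the part of this difference in elo-5 and elo-6 was not tested. The log2 change between RNAi and vector was 0.20 (-0.82 to 1.22) for elo-5 and -0.045 (-0.98 to 0.89) for elo-6, and the sign for elo-6 turns with median-of-ratios scaling. F41H10.3 overlaps elo-5 on the other strand and was at 20.5 to 98.9 CPM.

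**Figure D3:**
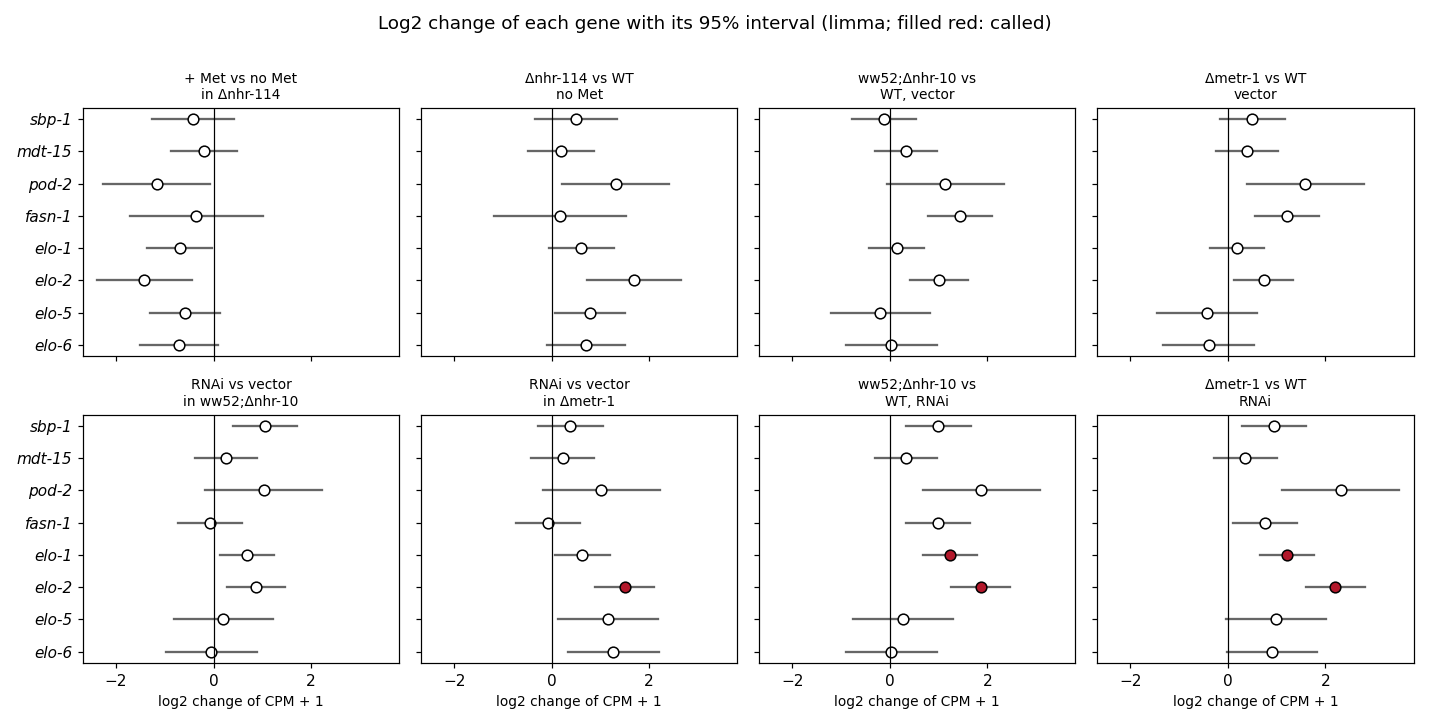
Log2 change of CPM + 1 (horizontal axis) of the 8 genes (vertical axis) in 8 comparisons, each point with its 95% interval from limma and filled red where called. The 5 called points are elo-2 in 3 panels and elo-1 in 2 panels, all in the second experiment.

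Counted over the 8 genes, the comparisons can be read against all genes tested. Between Δmetr-1 and wild type on nhr-114 RNAi, limma called 2 of 8 (elo-1 and elo-2), edgeR and DESeq2 3 of 8 (with pod-2), where they called 15.9%, 17.7% and 25.1% of all 11543 genes tested. The libraries of 7 of the 8 did not overlap and were higher in Δmetr-1, against 31.6% of all genes, and the median log2 change of the 8 was 0.97, against -0.12 over all genes. Between the double mutant and wild type on RNAi, limma called 2 of 8 against 12.3% of all genes, DESeq2 3 of 8 against 19.8%, 5 of 8 were higher without overlap against 32.6%, and the medians were 0.99 and -0.019. These comparisons share the wild type RNAi libraries. Between RNAi and vector, 1 of 8 was called in Δmetr-1 (12.5% of all genes) and 0 of 8 in the double mutant (4.76% of all genes), with 6 of 8 and 5 of 8 higher without overlap (28.6% and 29.8% of all genes). With limma, 3 of the 8 and 3535 of all 11543 genes had an unadjusted p under 0.05 in the double mutant, and edgeR and DESeq2 also called 0 of 8. The median log2 changes were 0.82 in Δmetr-1 and 0.47 in the double mutant, against -0.11 and -0.087 over all genes. Median-of-ratios scaling moved the median of all genes by 0.19 in Δmetr-1 between RNAi and vector and by 0.11 between Δmetr-1 and wild type on RNAi, and with it all 5 calls were still made.

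On vector, the mutants differed less from wild type. In Δmetr-1, 5 of 8 genes were higher than in wild type without overlap (17.4% of all genes) and elo-5 was lower, and in the double mutant 4 of 8 were higher (mdt-15, pod-2, fasn-1 and elo-2, against 26.8% of all genes). Limma called 0 of 8 in each, where it called 0.113% and 0.26% of all genes, and DESeq2 called fasn-1 in the double mutant, where it called 1.17% of all genes. At an unadjusted p under 0.05 limma had 3 of 8 in Δmetr-1 (972 of all 11543 genes) and 2 of 8 in the double mutant (1538 of all), and edgeR called 0 of 8 in each. In wild type, limma called 0 of 8 genes and 0% of all genes between RNAi and vector, with 0 of 8 and 141 of all genes at an unadjusted p under 0.05, and 0 of 8 called by edgeR or DESeq2. There nhr-114 itself was at 8.98 and 3.16 CPM on vector, against 340 and 2.30 CPM on RNAi. With so little nhr-114 on vector, this comparison says little about its loss in wild type, and the interactions use the same comparison. The log2 changes there ran from -0.41 for elo-1 to 0.38 for fasn-1. The interactions of nhr-114 RNAi with strain called 0 of 8 genes, against 0.0347% of all genes for Δmetr-1 and 0.0173% for the double mutant, with 2 of 8 (elo-1 and elo-2) and 3 of 8 (sbp-1, elo-1 and elo-2) at an unadjusted p under 0.05, against 3120 and 2255 of all 11543 genes, and 0 of 8 called by edgeR or DESeq2.

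The changes were also fitted without the doubted libraries and with stage markers as covariates. Each of these fits is less precise, so a call lost in it does not show dependence on these libraries or on stage. Without the 3 replicate 1 libraries labelled nhr-114 RNAi, which leaves 1 library in each RNAi group and assumes that it varies like the other groups, the log2 change of elo-2 was 2.22 (adjusted p 0.0408 in limma) in the double mutant and 2.24 (adjusted p 0.0297) in Δmetr-1 against wild type, and 1.53 (adjusted p 0.0433) for RNAi against vector in Δmetr-1. For elo-1 the changes against wild type were 1.58 (adjusted p 0.0554) and 1.63 (adjusted p 0.0447). None of the 5 was called, and each of these changes was larger than with all libraries. With the mean levels of the oocyte and cuticle lists as covariates, the change of elo-2 was 1.86 (SE 0.91) and 2.11 (SE 1.77) against wild type, with SE 0.27 in the fit without covariates. That of elo-1 was -0.93 (SE 1.34) in Δmetr-1, against 1.22 (SE 0.25) without covariates. The errors were wider with these covariates. The median log2 change of the 8 was then -0.11 in Δmetr-1 and 0.41 in the double mutant against wild type on RNAi, -0.87 and -0.34 for RNAi against vector in these strains, and -0.79 and -0.11 for the interactions. Limma then called 0 genes of the table in the 4 comparisons of a metr-1 mutant on RNAi, with 337 to 1122 genes at an unadjusted p under 0.05, and edgeR and DESeq2 were not run with these covariates.

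**Figure D4:**
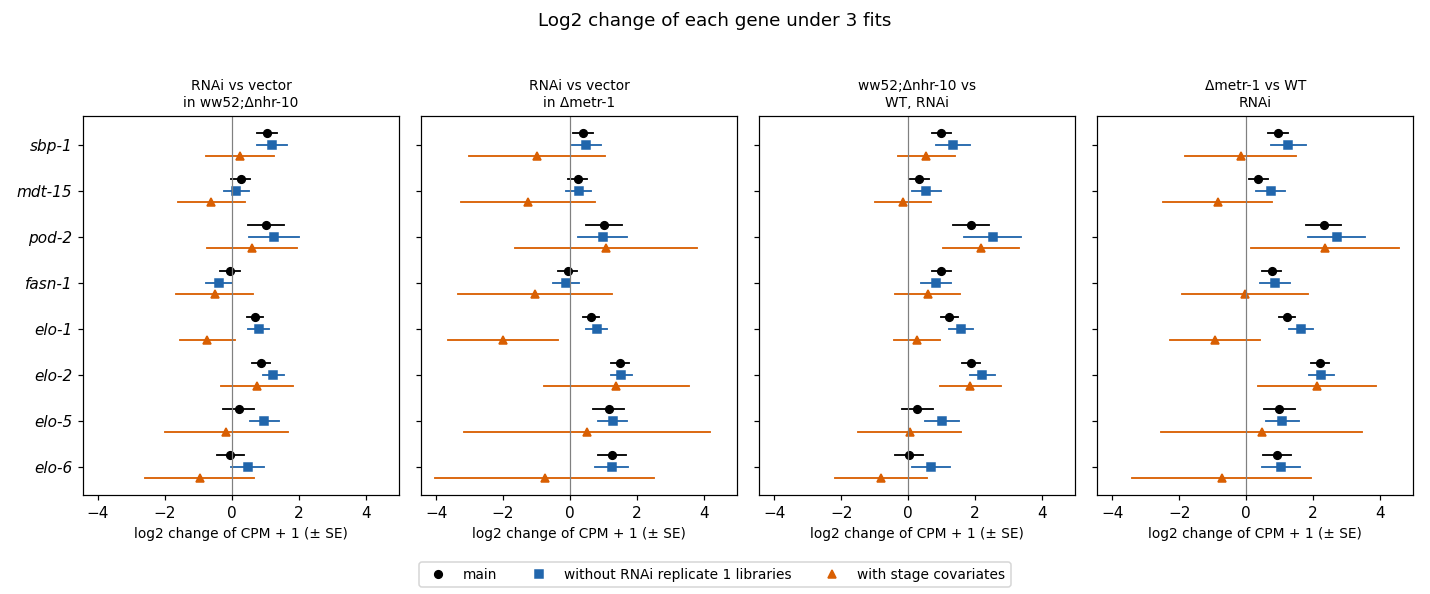
Log2 change of CPM + 1 with its standard error (horizontal axis) for the 8 genes (vertical axis) under 3 fits, in the 4 comparisons that involve nhr-114 RNAi in a metr-1 mutant. Elo-2 is higher under all 3 fits in each panel, with wide errors under stage covariates, and elo-1 turns negative under stage covariates in 3 of the 4 panels.

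In the first experiment limma and edgeR called 0 genes in every comparison and DESeq2 3 to 85, none of them among the 8. Of the 8, elo-2 had the largest log2 change in the comparisons that involve Δnhr-114 without methionine. With methionine elo-2 was at 413 and 371 CPM in Δnhr-114, against 363 and 304 CPM in wild type. Without methionine it was at 896 and 1226 CPM in Δnhr-114, against 208 and 507 CPM in wild type. The Δnhr-114 libraries without methionine stood above all 6 others. The log2 change was 1.69 (0.72 to 2.66, p 0.00459, adjusted p 0.434 in limma) for Δnhr-114 against wild type without methionine and -1.42 (-2.39 to -0.45, p 0.0107, adjusted p 0.936) for methionine in Δnhr-114, against 0.033 (-0.94 to 1.00) for methionine in wild type. The interaction was -1.45 (-2.82 to -0.08, adjusted p 1.00).

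The carboxylase gene pod-2 was at 138 and 124 CPM in Δnhr-114 with methionine, against 189 and 107 CPM in wild type with methionine. Without methionine it was at 317 and 275 CPM in Δnhr-114, against 74.5 and 187 CPM in wild type. The elongase gene elo-1 was at 734 and 677 CPM in Δnhr-114 with methionine and 1014 and 1284 CPM without it, while the 4 wild type libraries ranged from 587 to 928 CPM. The Δnhr-114 libraries without methionine were again above the 6 others for both genes. For pod-2 the log2 change was 1.31 (0.21 to 2.41, adjusted p 0.938 in limma) against wild type and -1.17 (-2.27 to -0.07, adjusted p 0.999) with methionine in Δnhr-114. For elo-1 these were 0.60 (-0.06 to 1.27, adjusted p 0.991) and -0.69 (-1.36 to -0.03, adjusted p 0.999).

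The branched-chain elongase genes were also highest in Δnhr-114 without methionine. In Δnhr-114 elo-5 was at 139 and 130.1 CPM with methionine, against 153 and 269 CPM without it. In the same libraries elo-6 was at 441 and 558 CPM with methionine, against 718 and 909 CPM without it. In wild type elo-5 ranged from 112 to 145 CPM and elo-6 from 358 to 712 CPM. The regulator sbp-1 was at 6.76 and 8.51 CPM in Δnhr-114 without methionine, and its other 6 libraries ranged from 4.37 to 6.71 CPM, 1 of them resting on 8 reads. Mdt-15 was at 91.8 and 82.1 CPM in Δnhr-114 without methionine and at 51.1 to 84.3 CPM in the other libraries. Fasn-1 overlapped between all groups, with 101 and 50.4 CPM in Δnhr-114 without methionine and 44.6 to 119.6 CPM in the others.

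**Figure D5:**
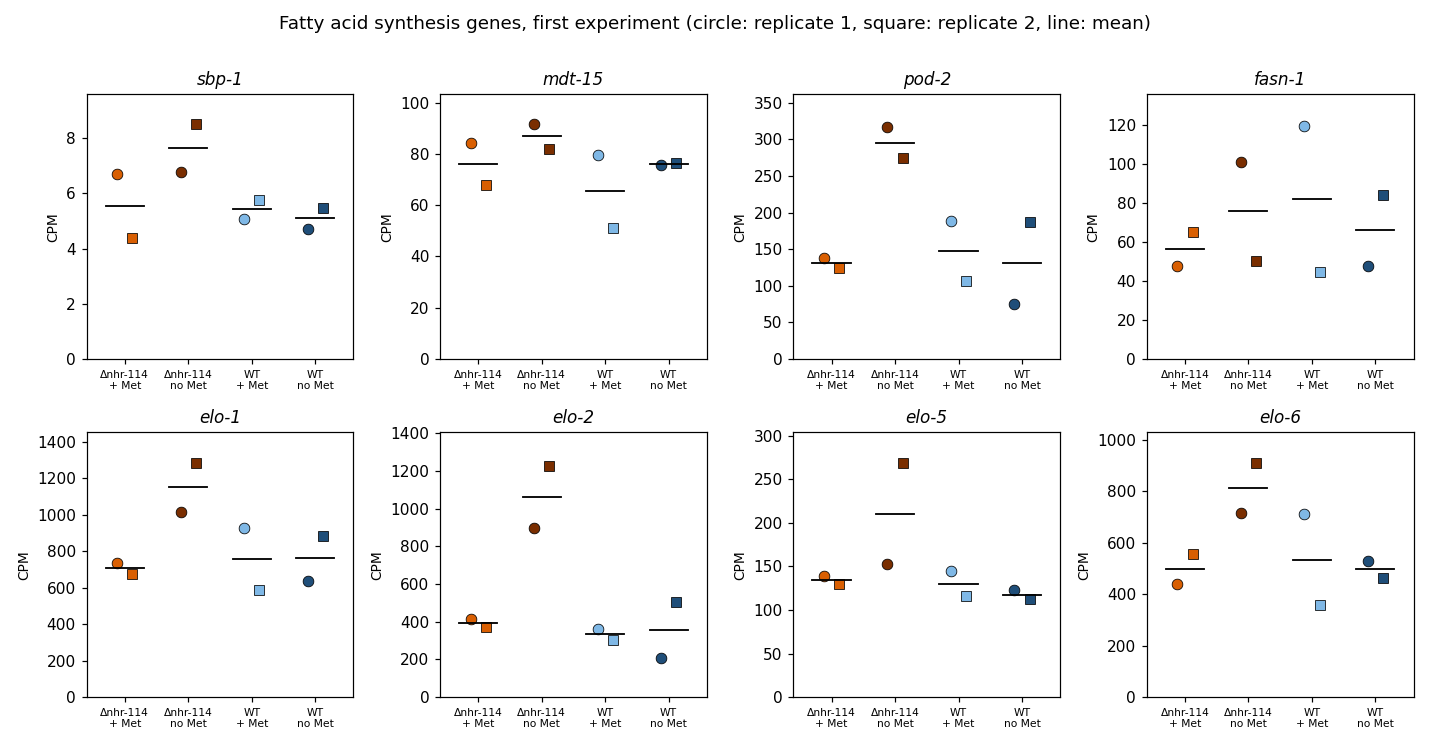
CPM of each of the 8 genes in the first experiment, by group on the horizontal axis, with a circle for replicate 1, a square for replicate 2 and a line for the mean of both. Both Δnhr-114 libraries without methionine are above the other 6 for elo-2, pod-2 and elo-1, with elo-2 at 896 and 1226 CPM against at most 507 CPM elsewhere.

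Counted over the 8 genes, 7 were higher in Δnhr-114 than in wild type without methionine with no overlap (17.8% of all 10948 genes tested), and 6 were lower with methionine than without in Δnhr-114 (18.7% of all genes). The median log2 change of the 8 was 0.65 in the first comparison, against 0.098 over all genes, and -0.64 in the second, against -0.067. These comparisons share the Δnhr-114 libraries without methionine. With methionine in wild type the median was 0.054 and all 8 genes overlapped, and between Δnhr-114 and wild type with methionine it was -0.0095 with 4 of 8 log2 changes above 0. Limma called 0 of 8 and 0% of all genes in each of these comparisons and in the interaction. At an unadjusted p under 0.05 it had 3 of 8 (pod-2, elo-2 and elo-5) between Δnhr-114 and wild type without methionine, 3 of 8 (pod-2, elo-1 and elo-2) for methionine in Δnhr-114, 1 of 8 (elo-2) in the interaction and 0 of 8 in the other comparisons, against 496, 477, 234 and 94 to 126 of all 10948 genes. Neither edgeR nor DESeq2 called any of the 8.

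Stage markers split the replicates in this experiment. The Δnhr-114 libraries without methionine had yolk protein sums of 68.0 and 3278 CPM and cuticle sums of 1973 and 90.5 CPM. None of the genes of either list was at 0, and elo-2 was above every other group in both of these libraries. Wild type without methionine was also split, with oocyte sums of 799 and 213 CPM and cuticle sums of 598 and 2118 CPM. Its elo-2 levels were 208 and 507 CPM in the same order. With the stage covariates, elo-2 differed between Δnhr-114 and wild type without methionine by 1.48 (SE 0.33, adjusted p 0.215 in limma) and between methionine and none in Δnhr-114 by -0.53 (SE 0.48). The intestinal marker sum was 3977 to 4292 CPM in Δnhr-114 without methionine, against 4692 to 7180 CPM in wild type without methionine. The body wall muscle sum was 4911 and 7414 CPM in Δnhr-114 without methionine, against 14014 and 18114 CPM in wild type without methionine, and 5392 to 6733 CPM in the groups with methionine, and its part in the values was not tested. With the stage covariates the median log2 change of the 8 was 0.53 between Δnhr-114 and wild type without methionine and -0.30 for methionine in Δnhr-114.

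Genes around the 8 members of the pathway were followed through 7 lists. The desaturases, which place double bonds into the chains that the elongases lengthen, had the most calls of any list. On nhr-114 RNAi, 6 of 7 were called higher in Δmetr-1 and 6 of 7 in the double mutant relative to wild type, with median log2 changes of 2.54 and 2.88 over the 7, against -0.12 and -0.019 over all genes, of which limma called 15.9% and 12.3% in either direction. Without the 3 doubted libraries, limma called only 3 and 2 genes of the whole table in these comparisons, with 1 library left in each RNAi group. Fat-2, the desaturase that makes linoleic from oleic acid, was at 1348 and 1515 CPM in the double mutant and 1482 and 1988 CPM in Δmetr-1, against 157 and 158 CPM in wild type on RNAi (log2 changes 3.18, adjusted p 0.000243, and 3.44, adjusted p 0.000116, in limma). Fat-5, fat-6 and fat-7 make monounsaturated fatty acids. Fat-5 was at 641 and 1721 CPM in the double mutant and 376 and 1417 CPM in Δmetr-1, against 10.6 and 8.82 CPM in wild type. Log2 changes in Δmetr-1 were 6.10 for fat-5, 2.54 for fat-6, 5.16 for fat-7, 1.96 for fat-3 and 1.79 for fat-4, and the gene not called was fat-1. Between RNAi and vector, fat-2 and fat-5 were called higher in both mutants, with fat-5 in the double mutant missed by edgeR (adjusted p 0.0103). There limma called 12.5% of all genes in Δmetr-1 and 4.76% in the double mutant, in either direction. Fat-2 was called on vector in the double mutant against wild type by limma (1.67, adjusted p 0.00785) and DESeq2, and not by edgeR (0.027). Limma called 0.26% of all genes there. Members of this family have similar sequences, so the split of reads between near-identical copies such as fat-6 and fat-7 is uncertain.

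Of the genes that supply carbon and reducing power, 2 of 5 rose on RNAi in each mutant relative to wild type, where 15.9% (Δmetr-1) and 12.3% (the double mutant) of all genes were called. These were acly-1, an ATP citrate lyase that makes the acetyl-CoA used by POD-2 (log2 change 2.01 in the double mutant, adjusted p 0.00298, and 1.57 in Δmetr-1, adjusted p 0.00813, in limma), and idh-1, an NADP-dependent isocitrate dehydrogenase (1.69, adjusted p 0.00353, and 1.75, adjusted p 0.00229). Among the other regulators 1 of 7, a share near that of all genes, rose: nhr-49, a nuclear hormone receptor that controls fatty acid desaturation and breakdown (1.30 in the double mutant and in Δmetr-1, adjusted p 0.0035 and 0.00278). Among 5 genes of triglyceride synthesis and storage, lpin-1, the phosphatidic acid phosphatase lipin (2.30 and 2.17, adjusted p 0.000728 and 0.000639), and plin-1, a lipid droplet protein (2.21 and 1.94, adjusted p 0.00286 and 0.00434), rose in each mutant. Plin-1 was also called higher by limma between RNAi and vector in the double mutant (2.17, adjusted p 0.00642), where 4.76% of all genes were called.

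The other enzymes of the elongation cycle did not move together. Of 8 listed, 7 were tested, since elo-9 did not pass the filter. The dehydratase gene hpo-8 rose in Δmetr-1 relative to wild type on RNAi (log2 change 1.23, adjusted p 0.00975 in limma), and the elongase genes elo-7 and elo-8 fell. Elo-7 was at 4.81 and 1.42 CPM in the double mutant and 0.722 and 1.80 CPM in Δmetr-1 on RNAi, against 15.1 and 19.4 CPM in wild type on RNAi and 11.2 to 19.0 CPM in the vector libraries. Elo-8 was at 1.05 and 0.773 CPM in the double mutant and 0.813 and 1.08 CPM in Δmetr-1, against 9.81 and 16.5 CPM in wild type on RNAi. Both were called lower relative to wild type on RNAi and relative to vector, with log2 changes from -2.22 to -3.04 in limma. Of all 11543 genes, limma called 1154 lower in Δmetr-1 and 820 in the double mutant relative to wild type on RNAi. Relative to vector it called 1272 and 390 lower in these strains. It called 678 genes higher where hpo-8 was called. EdgeR missed elo-7 in the double mutant against wild type (adjusted p 0.0142) and against vector (0.028). In these mutants on RNAi the germline and sperm marker sums were lowest, and the part of these cells in the values was not tested. Of 6 genes of branched-chain precursor supply and 7 tested of 8 genes of fatty acid breakdown, limma called 0 in every comparison, with acs-1, which activates fatty acids for branched-chain synthesis, at a log2 change of 1.48 (adjusted p 0.0799) and acs-2, an acyl-CoA synthetase of the breakdown path, at 1.60 (adjusted p 0.0137) in Δmetr-1 against wild type on RNAi. Over the 14 comparisons these lists had 6 and 4 tests at an unadjusted p under 0.05, and edgeR and DESeq2 called 0 in the precursor list and acs-2 alone in the breakdown list, in Δmetr-1 against wild type on RNAi.

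In the first experiment limma and edgeR called 0 genes of these lists, which hold 46 genes, with elo-9 and lipl-4 not tested. At an unadjusted limma p under 0.05 there were 12 for methionine in Δnhr-114, against 477 of all 10948 genes. For Δnhr-114 against wild type without methionine there were 10, against 496 of all. DESeq2 called 5 list genes for methionine in Δnhr-114, against 43 of all genes. They were fat-2, fat-5, fat-6, fat-7 and plin-1, all lower with methionine. For Δnhr-114 against wild type without methionine it called 4 (fat-2, fat-5, fat-7 and plin-1, all higher in Δnhr-114), against 85 of all. In the interaction it called 2 (fat-5 and fat-7), against 22 of all. The lowest adjusted p for Δnhr-114 against wild type without methionine were those of fat-2 (log2 change 1.73, adjusted p 0.119 in limma), fat-7 (5.09, adjusted p 0.122), fat-6 (1.76, adjusted p 0.16) and plin-1 (1.83, adjusted p 0.173). In Δnhr-114 fat-2 was at 182 and 198 CPM with methionine and 1126 and 757 CPM without it, against 255 and 304 CPM in wild type without methionine. The desaturase gene fat-5 was at 6.01 and 3.64 CPM in Δnhr-114 with methionine and 290 and 495 CPM without it, against 48.5 and 14.7 CPM in wild type without methionine (log2 change -6.06 for methionine in Δnhr-114, adjusted p 0.198). All 7 desaturases were lower with methionine than without in Δnhr-114 with no overlap of the libraries, as were 18.7% of all genes. Their median log2 change was -2.03, against -0.067 over all genes.

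The genes whose pattern was most like each member's were named by Pearson's correlation of log2(CPM + 1) over the 12 libraries of the second experiment, among 5887 genes with a mean of at least 20 CPM, with the value over the 8 libraries of the first experiment beside it. These correlations describe libraries that share groups and stages. For elo-2 the closest were fat-2 (0.981, and 0.823 in the first experiment), fdgt-1 (0.980, and -0.141) and mab-31 (0.979, and 0.359). For elo-1 they were H06I04.6 (0.980, and 0.708), clik-3 (0.962, and 0.720) and dhs-19 (0.958, and 0.777). For pod-2 they were T26C12.1 (0.973, and 0.982), tps-1 (0.956, and 0.867) and txt-14 (0.955, and 0.580). Of these 9, fat-2 and T26C12.1 were above 0.8 in both experiments, as was tps-1.

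The partners of the other members were found in the same way. For sbp-1 the closest were Y41C4A.32 (0.983, and 0.873 in the first experiment), warf-1 (0.979, and 0.770) and B0205.13 (0.960, and 0.706). For mdt-15 they were skat-1 (0.962, and 0.106), dip-2 (0.952, and 0.625) and itx-1 (0.951, and 0.468), and for fasn-1 fkh-7 (0.935, and 0.805), unc-13 (0.931, and 0.554) and unc-119 (0.910, and 0.0680). All strains carry unc-119(+) as a transgene marker, so unc-119 counts may come from the transgene. For elo-5 they were slc-25A10 (0.912, and -0.471), art-1 (0.870, and 0.630) and mif-2 (0.870, and 0.0351), and for elo-6 ttr-36 (0.885, and -0.553), slc-25A10 (0.868, and -0.161) and spig-10 (0.839, and 0.485).

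Among the 8 members themselves, elo-5 and elo-6 were the closest pair over the 12 libraries of the second experiment (Pearson's r 0.940, and 0.812 over the 8 libraries of the first). Elo-1 and elo-2 had r 0.894 and 0.889, and pod-2 and elo-2 0.892 and 0.922. Sbp-1 correlated with elo-1 at 0.892 and 0.685 and with elo-2 at 0.811 and 0.815, while its values with elo-5 were 0.439 and 0.760. Mdt-15 and fasn-1 had r under 0.08 with elo-5 and elo-6 in the second experiment. The 2 synthesis enzymes pod-2 and fasn-1 had r 0.721 and 0.568.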

How the data were processed

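The authors made libraries with a modified CEL-seq2 protocol, trimmed reads with Trimmomatic 0.32, aligned them with STAR, and assigned reads to 3′ ends by means of ESAT and the WormBase WS271 gene annotation, from which pseudogenes were discarded. The authors tested their counts with DESeq2. Whether counting used strand is not given in the sources used here. The deposited values, named TPM, are CPM: each column sums to 1000000, and 100% of the deposited CPM values are whole multiples of 1 step per library (within 0.01 read), which gave back whole reads. These are described as read counts, although ESAT ran with a setting for molecular identifiers.

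Log2(CPM + 1) was tested with limma 3.58.1 (R 4.3.3, 1 mean per group, trended and robust empirical Bayes, two-sided) with Benjamini-Hochberg adjustment over 10948 and 11543 genes that had 5 CPM or more in 2 or more libraries. Alternatives were edgeR 4.0.16 (TMM, quasi-likelihood) and DESeq2 1.42.0 on recovered reads, pseudocounts of 0.5 and 5, no filter, a filter at 20 CPM, median-of-ratios scaling, the compared libraries only, a replicate term, stage covariates (mean log2 level of the oocyte and the cuticle lists), and leaving out libraries. The limma, edgeR and DESeq2 code was tested on simulated data. Replicates differed by more than counting error (chi-square per degree of freedom 11.1 to 157), and p-values measure only the spread between these libraries.

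All 8 members are described in every group. Of each pathway list, called genes are named, and otherwise up to 3 with the lowest adjusted p. The members and lists were chosen with earlier results of these data known. Positions come from the Ensembl annotation of WBcel235, matched by gene identifier (39258 of 39341 found).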

Additional observations from a re-analysis of the deposited data

How the results depend on the processing

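The 5 limma calls (elo-2 and elo-1 in each mutant against wild type on nhr-114 RNAi, and elo-2 for RNAi against vector in Δmetr-1) were also made with either other pseudocount, the 20 CPM filter, median-of-ratios scaling, edgeR, DESeq2 and the replicate term. The number of members called moved as follows. Between Δmetr-1 and wild type on RNAi (2 called) it was 0 with stage covariates and 0 without the 3 replicate 1 libraries labelled nhr-114 RNAi, and 1 to 3 when each library was left out. Between RNAi and vector in Δmetr-1 (1 called) it was 0 with the compared libraries only, 0 with stage covariates, 0 without those 3 libraries, and 0 to 1 over single libraries left out. Between the double mutant and wild type on RNAi (2 called) it was 1 with no filter, 1 with the compared libraries only, 0 with stage covariates, 0 without the 3 libraries, and 0 to 3 over single libraries left out. Between the double mutant and wild type on vector (0 called) it was 1 with DESeq2. Of the alternative counts of members called over all 14 comparisons, 273 stayed within 1.5 times the count given and 24 did not. A count of 0 that stayed at 0 is among the 273, and most comparisons had 0 called. These totals therefore do not measure how well the 5 calls held. With each of 12 libraries left out in turn, the count moved beyond that limit 5 times for Δmetr-1 against wild type on RNAi. It moved 6 times for the double mutant against wild type on RNAi, and 3 times for RNAi against vector in Δmetr-1. With no filter on low values, elo-1 left and pod-2 joined the calls between Δmetr-1 and wild type on RNAi. Sbp-1 could not be fitted under the 20 CPM filter, which it did not pass.

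With stage covariates the sign turned for 5 of 8 members in Δmetr-1 and 2 of 8 in the double mutant against wild type on RNAi, 4 and 3 of 8 for RNAi against vector in these strains, 3 and 1 of 8 for the interactions, 1 of 8 in the double mutant against wild type on vector, and, in the first experiment, 4 of 8 for Δnhr-114 against wild type with methionine, 1 of 8 for methionine in wild type and 1 of 8 for the interaction. Among them were elo-1 at -0.93 in Δmetr-1 against wild type on RNAi, -2.01 and -0.74 for RNAi in Δmetr-1 and the double mutant, and -1.59 and -0.31 for the interactions of RNAi with these strains, elo-6 -0.75 for RNAi in Δmetr-1, and fasn-1 -0.042 and sbp-1 -0.17 in Δmetr-1 against wild type on RNAi. The standard error of elo-1 grew to 1.34 there.

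Replicate numbers were tested as pairs. In the first experiment, deviations from group means correlated between same-numbered libraries at -0.66 to 0.31 (median -0.23, 2 of 6 pairs of groups over 0.1). In the second they correlated at -0.47 to 0.68 (median 0.024, 6 of 15). The medians show no general pairing, but they cannot show whether some same-numbered libraries share a batch. The 3 replicate 1 libraries labelled nhr-114 RNAi shared high nhr-114 levels. With a replicate block, pod-2 joined the calls between Δmetr-1 and wild type on RNAi (adjusted p 0.00403, 3 members), the other counts of members stayed as given, and 2001 genes in place of 1832 were called in that comparison.

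Counts over all genes moved more. On RNAi, Δmetr-1 against wild type called 1832 genes, 0 with stage covariates and 2902 with DESeq2, and the double mutant against wild type 1417, 0 and 2280. RNAi against vector called 1448 genes in Δmetr-1 (0 with the compared libraries only, 2424 with DESeq2) and 550 in the double mutant (0 with stage covariates, 1290 with DESeq2). Over single libraries left out these ran from 638 to 2666, 329 to 2051, 57 to 2259 and 0 to 1013. On vector 13 genes were called in Δmetr-1 (89 with DESeq2) and 30 in the double mutant (135 with DESeq2, 274 with the compared libraries only). The interactions called 4 and 2 genes, 853 and 478 with DESeq2. In the first experiment limma and edgeR called 0 and DESeq2 3 to 85. RNAi against vector in Δmetr-1 had 176 calls above and 1272 below 0, and 326 and 1073 with median-of-ratios scaling. With 2 libraries a group, depth was seldom the limit: replicates differed by far more than counting error, and sbp-1, with 8 to 194 reads, is the member where depth adds most.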
